A study of Homo sapiens with 8 samples.

Results

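Open chromatin at 4 genes for surface markers of early haematopoietic and B cell precursor stages, CD34, MME, PROM1 and CD44, was compared between 2 leukaemia lines and between the arms of each line. The loci were fixed as windows in hg19: chromosome 1 from 208.03 to 208.12 Mb (CD34), chromosome 3 from 154.74 to 154.92 Mb (MME), chromosome 4 from 15.94 to 16.12 Mb (PROM1) and chromosome 11 from 35.13 to 35.28 Mb (CD44). Every peak of the 8 deposited lists that overlapped a window by at least 1 bp was a member. Peaks that shared at least 1 bp in any lists were merged into regions, numbered by position within each locus. This gave 54 regions of the 133028 in all, from 247 of 532743 peaks: 11 regions at CD34, 14 at MME, 15 at PROM1 and 14 at CD44.

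ATAC-seq marks accessible DNA by letting a transposase insert sequencing adapters into it. KOPN-8 gave 2 libraries of the SETD2 guide clone BA, labelled as a heterozygous knockout, and 2 libraries of cells with an empty guide vector, labelled as SETD2 wild type. 697 gave 2 libraries of the SETD2 guide clone BM_B, also labelled heterozygous, and 2 of empty vector cells. Both are established B cell precursor acute lymphoblastic leukaemia lines, grown in RPMI1640 with serum, and each edited group is 1 clone. SETD2 is a histone methyltransferase, and peak lists do not show the edit itself, so the genotype labels were not checked here. The lists held 57154 to 76495 peaks, the shortest and the longest both being from 697, and read depth is unknown. Libraries of a group are called biological replicates without a word on how cultures were separated, so p-values measure only the spread between these libraries, which may be partly technical.

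CD34 is a sialomucin of haematopoietic stem and progenitor cells. MME encodes CD10, a membrane metalloendopeptidase that marks common B cell precursors and is often absent from leukaemia with a rearranged KMT2A gene. PROM1 encodes CD133, a membrane glycoprotein of progenitor cells and a known target of KMT2A fusion proteins, and CD44 encodes a receptor for hyaluronan. KOPN-8 carries a fusion of KMT2A with MLLT1, as general background on this line.

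The promoters of the 4 genes are shown because the loci are named for these genes, and the account below turns on which of their starts lay in a called region. The sequences are those of RefSeq on GRCh38.p14, read 5′ to 3′ on the gene's strand from 250 bases before to 50 bases after the annotated start: chr1:207911076-207911375 on the minus strand, chr3:155079422-155079721 on the plus strand, chr4:16083974-16084273 on the minus strand and chr11:35138921-35139220 on the plus strand. These positions are in another build than the peaks and cannot be set against them. For MME and PROM1 the first of 4 annotated starts is shown. Capitals mark GC boxes, GGGCGG or its complement CCGCCC, and in the MME sequence the 2 boxes overlap.
CD34 promoter: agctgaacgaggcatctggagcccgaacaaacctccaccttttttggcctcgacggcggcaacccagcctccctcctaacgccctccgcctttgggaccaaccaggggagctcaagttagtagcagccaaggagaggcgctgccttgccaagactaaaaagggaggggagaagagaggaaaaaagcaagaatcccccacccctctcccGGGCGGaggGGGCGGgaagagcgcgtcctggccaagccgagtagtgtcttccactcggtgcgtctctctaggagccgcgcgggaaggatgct
MME promoter: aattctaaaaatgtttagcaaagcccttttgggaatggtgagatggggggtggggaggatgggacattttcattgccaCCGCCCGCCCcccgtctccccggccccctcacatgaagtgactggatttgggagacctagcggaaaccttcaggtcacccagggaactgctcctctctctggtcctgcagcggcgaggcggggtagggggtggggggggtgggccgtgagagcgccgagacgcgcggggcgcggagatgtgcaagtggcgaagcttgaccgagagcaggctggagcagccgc
PROM1 promoter: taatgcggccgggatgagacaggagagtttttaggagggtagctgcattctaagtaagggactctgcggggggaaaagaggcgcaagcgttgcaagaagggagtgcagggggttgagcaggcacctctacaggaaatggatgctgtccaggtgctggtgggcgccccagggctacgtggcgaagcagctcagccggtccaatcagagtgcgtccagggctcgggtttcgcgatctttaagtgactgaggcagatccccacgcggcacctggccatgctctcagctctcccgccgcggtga
CD44 promoter: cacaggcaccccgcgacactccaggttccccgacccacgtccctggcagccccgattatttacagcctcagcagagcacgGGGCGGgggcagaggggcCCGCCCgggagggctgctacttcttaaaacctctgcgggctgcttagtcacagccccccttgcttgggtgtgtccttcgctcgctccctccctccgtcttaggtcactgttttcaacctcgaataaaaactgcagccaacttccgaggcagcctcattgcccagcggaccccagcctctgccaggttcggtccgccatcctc

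Of the sequences shown, those of CD34, MME and CD44 held 2 GC boxes each and that of PROM1 held 0, while a GC box was in 45% of 35116 RefSeq promoters. The CCAAT box, searched as CCAAT or ATTGG, was in the PROM1 sequence and not in the other 3, and in 34.6% of all promoters. None of the 4 held a TATA box, searched as TATAAA or TTTATA, which 11.5% of all promoters held. The other annotated starts of PROM1 held 0 to 2 GC boxes and those of MME 0 to 3, so these counts depend on the start chosen. The GC content of the 4 was close, at 61.7% for CD34, 63.3% for MME, 60.7% for PROM1 and 63.3% for CD44, with a median of 58.7% over all promoters.

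No hg19 gene annotation was used, so start sites, exons and introns were not assigned by a file. From general knowledge of the hg19 gene models, which was not checked here, the start of CD44 lies in CD44 region 5 and the main start sites of MME lie in MME region 4. By the same knowledge the start sites of PROM1 fall within a stretch without a peak, and that of CD34 falls just beside CD34 region 10. MME region 4 was called in all 8 libraries, CD44 region 5 in all 4 KOPN-8 libraries and no 697 library, and CD34 region 10 in 1 KOPN-8 library of 8. A region that was not called may still be accessible below the caller's threshold.

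On average KOPN-8 had more peaks than 697 at all 4 loci, and the difference was greatest at CD44 and PROM1. CD44 held 12 and 10 peaks in the KOPN-8 clone and 10 and 9 in its control, against 4 and 4 in the 697 clone and 4 and 3 in its control. PROM1 held 12 and 9 peaks in the KOPN-8 clone and 12 and 12 in its control, against 6 in each of the 4 libraries of 697. At both loci every KOPN-8 library lay above every 697 library. MME held 8 and 6 peaks in the KOPN-8 clone and 10 and 10 in its control, against 6 and 5 in the 697 clone and 5 and 7 in its control, so the lines overlapped. CD34 held 9 and 9 peaks in the KOPN-8 clone and 8 and 9 in its control, against 8 and 8 in the 697 clone and 7 and 7 in its control, so that the lines met at 8 peaks.

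**Figure D1:**
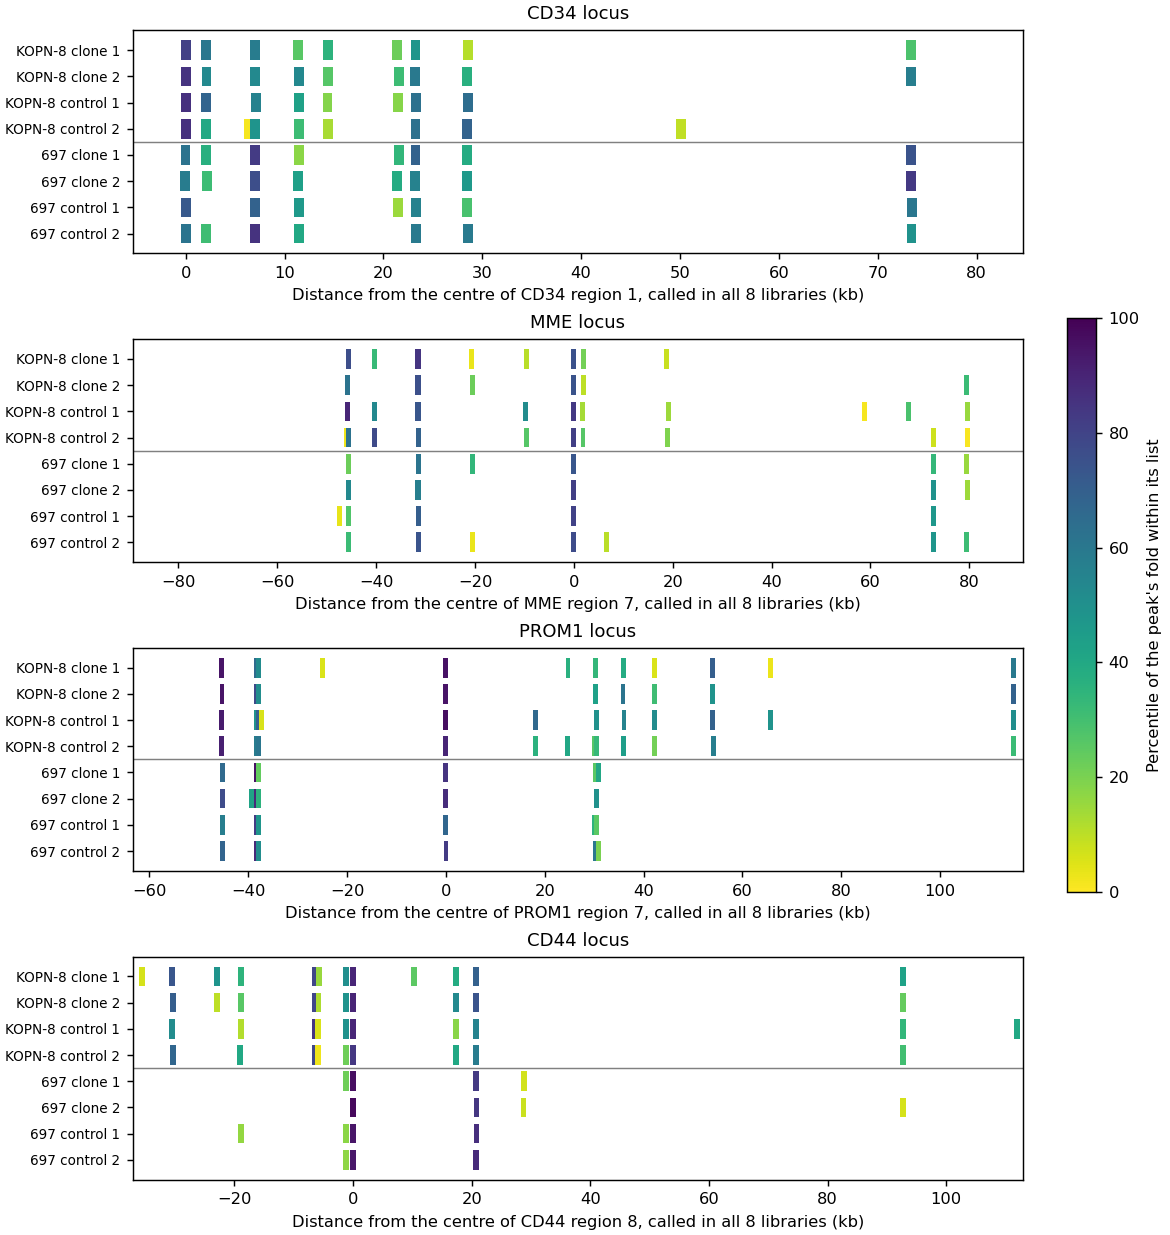
Peaks of the 8 lists in the 4 windows, drawn at their distance in kb from the centre of a region called in all 8 libraries; peaks narrower than 1 kb are drawn 1 kb wide, and the colour gives the percentile of the peak's fold within its list. The CD44 and PROM1 panels hold several columns of peaks in the 4 KOPN-8 rows that are empty in the 4 rows of 697.

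Lists of different length were compared by peaks per 10000 peaks of the list. CD44 had 1.54 ± 0.172 in KOPN-8 and 0.571 ± 0.12 in 697 (SD, n = 4 each), a ratio of 2.70 (exact permutation test, two-sided, p = 0.0286, the smallest that 4 against 4 libraries can give). PROM1 had 1.69 ± 0.213 in KOPN-8 and 0.911 ± 0.116 in 697, a ratio of 1.86 (exact permutation, p = 0.0286). MME had 1.28 ± 0.281 in KOPN-8 and 0.870 ± 0.153 in 697 (exact permutation, p = 0.0857), and CD34 had 1.32 ± 0.127 in KOPN-8 and 1.13 ± 0.133 in 697 (exact permutation, p = 0.114). With Benjamini-Hochberg adjustment over 25929 tests, the 4 loci and all 100 kb windows of the genome with a peak, the exact permutation p was 0.0858 for CD44 and PROM1, 0.195 for MME and 0.240 for CD34. None of the 25929 tests passed the threshold of 0.05 after adjustment (percent called 0, exact permutation test). The adjusted value of CD44 and PROM1 was the smallest of all these tests, shared by every test at the smallest p. The adjustment therefore cannot part these loci from other windows that separate the lines. At the smallest unadjusted p, KOPN-8 was higher in 16.0% of them and 697 in 17.3%, so windows that separate the lines completely, as CD44 and PROM1 do, were common across the genome. With lists of equal length the MME difference was 0.131, and with windows widened by 50 kb it was 0.136, against 0.407 with the lists and windows as they stand. The 4 libraries of a line come from 1 cell line, and the test compares these 2 lines only.

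The line difference was present in each arm. At CD44 the KOPN-8 clone exceeded the 697 clone by 1.09 peaks per 10000 and the KOPN-8 control exceeded the 697 control by 0.854. At PROM1 these differences were 0.719 and 0.843. The values of MME were 0.255 between the clones and 0.560 between the controls, and those of CD34 were 0.207 and 0.164. With 2 libraries against 2 there are 6 divisions, so an exact permutation test cannot reach the threshold within an arm. The longest list, of 697 clone 2, had 4 peaks at CD44, and the shortest, of 697 control 1, also had 4.

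**Figure D2:**
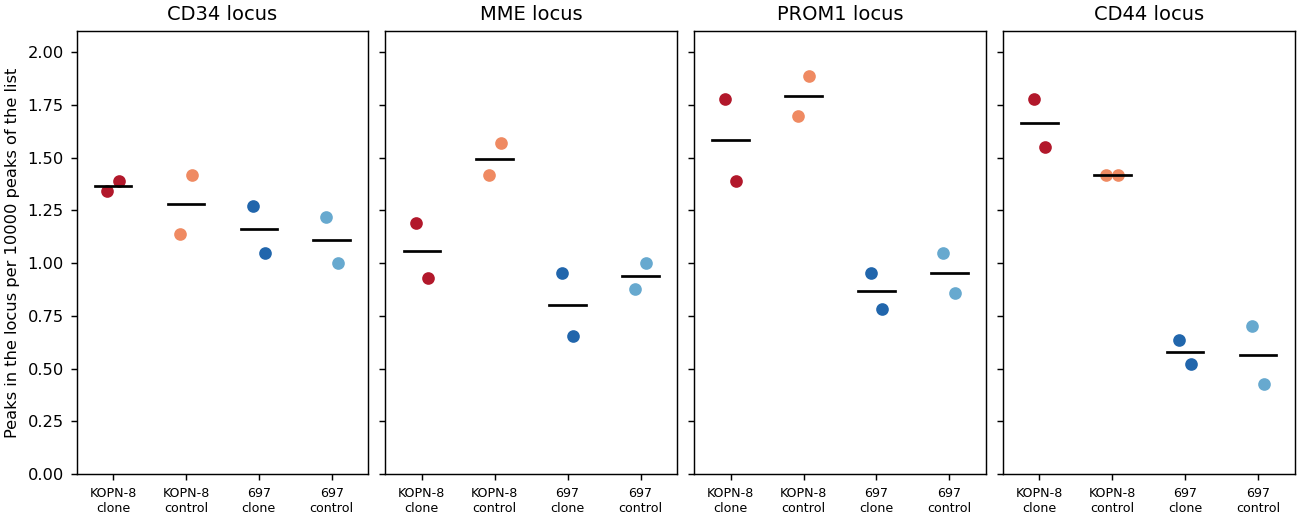
Peaks in each locus per 10000 peaks of the list, for each of the 8 libraries (points) with the mean of the 2 libraries of a group (bars). At CD44 the 4 KOPN-8 libraries lie between 1.42 and 1.78 and the 4 libraries of 697 between 0.428 and 0.700.

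The bases covered by peaks were compared as well. In CD44 peaks covered 4250 and 3570 bp in the KOPN-8 clone and 2981 and 3129 bp in its control, against 1820 and 1614 bp in the 697 clone and 1440 and 1317 bp in its control. PROM1 peaks covered 4671 and 3594 bp in the KOPN-8 clone and 5730 and 4391 bp in its control, against 2337 and 2605 bp in the 697 clone and 1684 and 2332 bp in its control. The lines did not overlap at either locus. MME peaks covered 3885 and 3375 bp in the KOPN-8 clone and 5044 and 4602 bp in its control, against 3113 and 3176 bp in the 697 clone and 2540 and 3240 bp in its control. By covered bases the lines thus did not overlap at MME, where by number of peaks they did. The share of all windows that separate the lines by covered bases was not counted. The lack of overlap by this measure therefore cannot be read as setting a locus apart. Covered bases per 10000 covered bases of the list gave an exact permutation p of 0.0286 at MME, PROM1 and CD44 (adjusted p = 0.0663) and of 0.200 at CD34 (adjusted p = 0.306).

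Of the 54 regions, 10 (18.5%) were called in all 4 KOPN-8 libraries and no 697 library, against 7.30% of all regions of the series. The reverse, all 4 of 697 and none of KOPN-8, was found in 0 of 54, against 5.85% of all regions. A further 15 (27.8%) were called in all 8 libraries, against 20.4%, and 12 (22.2%) in 1 library, against 30.2%. The KOPN-8 regions were 4 at CD44, 4 at PROM1, 1 at MME and 1 at CD34. Each had a Fisher's exact p of 0.0286, the smallest possible, and an adjusted p of 0.217 over all 133028 regions. No region of the series passed after adjustment, since that adjusted value was the smallest of all. In this exact test 13.2% had an unadjusted p under 0.05. Regions share their 8 libraries and are not independent, so the counts describe these lists.

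The count of 10 changed with the peaks admitted. With the strongest 50% of each list it was 2 of 28 regions, a lower share than the 8.92% in the whole series. The excess over the series was thus absent among the stronger peaks. With each list reduced to its strongest 57154 peaks the count was 6 of 46, a higher share than the 8.36% of the series. With peaks at least 300 bp wide it was 5 of 38, also above the 7.59% of the series. CD44 regions 2 and 5 were in the class under each of these settings, and also where a call had to cover at least 50% of the region.

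**Figure D3:**
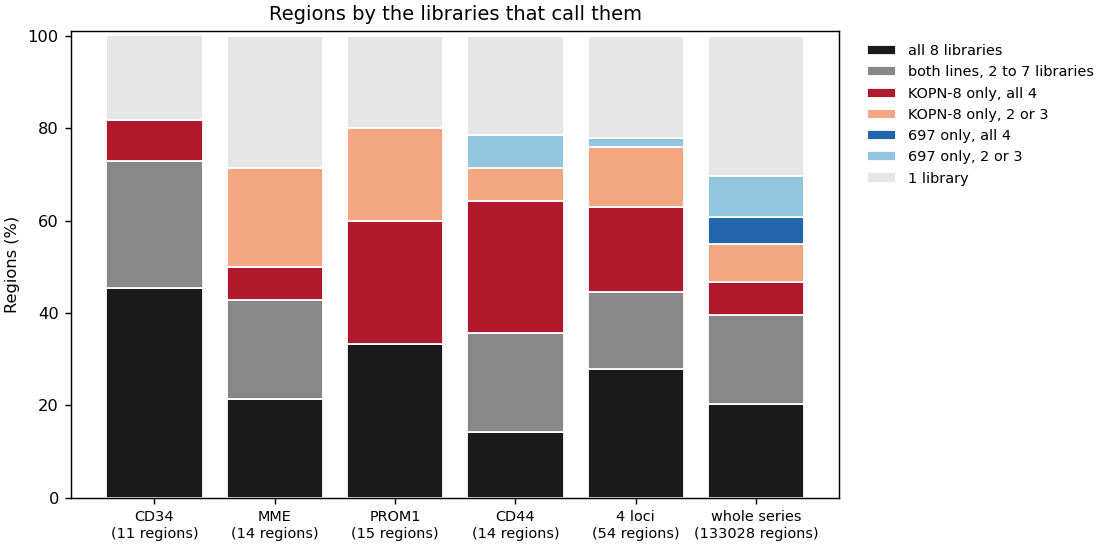
Regions of each locus, of the 4 loci together and of the whole series in percent, divided by the libraries that call them. Regions called in all 4 KOPN-8 libraries and no 697 library make up 28.6% at CD44 and 26.7% at PROM1, against 7.30% in the whole series, and the class of all 4 libraries of 697 alone is present only in the whole series.

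CD44 had 4 regions called in all 4 KOPN-8 libraries and in no 697 library. Region 5, on chromosome 11 from 35160376 to 35161012, had folds over background of 9.69 and 9.72 in the KOPN-8 clone and 10.5 and 9.44 in its control, and no peak in any 697 list. The fold is the authors' own value for a peak, the ratio of its pileup to the local background, and it ranks peaks within 1 list. Region 5 stood at percentiles 78.6 to 84.6 of the 4 KOPN-8 lists, so it was a strong peak in each. Region 2 (from 35136456 to 35136943) had folds of 8.61 and 8.22 in the KOPN-8 clone and 5.90 and 7.76 in its control. Regions 6 (from 35161133 to 35161412) and 10 (from 35184364 to 35184654) were weaker, with folds from 3.16 to 3.83 and from 3.88 to 6.25.

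The CD44 region with the highest folds was called in both lines. Region 8 (from 35166791 to 35167372) had folds of 12.2 and 12.2 in the KOPN-8 clone and 11.7 and 10.5 in its control, against 15.0 and 16.8 in the 697 clone and 13.8 and 13.3 in its control. Region 11 (from 35187453 to 35188213) had folds of 8.05 and 8.77 in the KOPN-8 clone and 6.20 and 6.82 in its control, against 10.5 and 11.0 in the 697 clone and 11.0 and 11.3 in its control. Both regions thus had higher folds in each 697 list than in any KOPN-8 list, although the locus had fewer peaks in 697. Folds of different lists have different backgrounds and lengths, so this is a description and was not tested. The share of all regions called in all 8 libraries whose folds separate the lines was not computed. Such a separation therefore cannot be read as setting a region of these loci apart, here or below. Between regions 12 and 13 no list had a peak over 63.3 kb.

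At PROM1, 4 regions were called in all 4 KOPN-8 libraries and in no 697 library, and 3 more in 2 KOPN-8 libraries each and no 697 library. The first class held 26.7% of the PROM1 regions, against 7.3% of all regions. The class of 2 or 3 KOPN-8 libraries alone held 20%, against 8.2%. Those called in all 4 lay at higher coordinates than region 10. Region 13, on chromosome 4 from 16057148 to 16057746, had folds of 8.21 and 5.92 in the KOPN-8 clone and 7.66 and 6.71 in its control. Region 15 (from 16117975 to 16118400) had folds of 6.82 and 8.02 in the KOPN-8 clone and 5.79 and 4.90 in its control. Region 11 (from 16038838 to 16039811) had folds from 5.11 to 7.11, and region 12, from 16045289 to 16045868, from 3.31 to 5.86. No list had a peak from 16069137 to 16117974, a stretch of 48.8 kb, which by the placement above holds the start sites of the gene. The KOPN-8 peaks of this locus therefore flanked that stretch and did not lie in it.

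The strongest PROM1 regions were called in all 8 libraries. Region 7 (from 16003016 to 16003578) had folds of 14.9 and 14.4 in the KOPN-8 clone and 14.8 and 12.1 in its control, against 10.8 and 11.8 in the 697 clone and 7.68 and 9.88 in its control. Region 1 (from 15957456 to 15958229) had folds of 14.4 and 14.3 in the KOPN-8 clone and 13.1 and 12.6 in its control, against 7.70 and 9.35 in the 697 clone and 6.62 and 7.47 in its control. Both had higher folds in each KOPN-8 list than in any 697 list, but how common this is over all regions was not computed. Region 3 (from 15964760 to 15965160) had the opposite order, with 7.52 and 9.39 in the KOPN-8 clone and 5.72 and 6.81 in its control, against 14.5 and 12.1 in the 697 clone and 10.1 and 11.5 in its control. In the order of RefSeq genes on GRCh38.p14 FGFBP2 comes directly before PROM1, and whether the low end of the window belongs to a neighbouring gene was not tested.

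The 3 strongest MME regions were called in all 8 libraries. Region 7, on chromosome 3 from 154828737 to 154829639, had folds of 8.94 and 8.81 in the KOPN-8 clone and 10.2 and 9.99 in its control, against 8.64 and 10.2 in the 697 clone and 9.63 and 8.79 in its control. Region 4 (from 154797028 to 154798271) had folds of 10.9 and 9.04 in the KOPN-8 clone and 8.29 and 7.92 in its control, against 7.18 and 6.48 in the 697 clone and 8.04 and 8.27 in its control. The lines overlapped in both regions. Region 4 was also the widest of all 54, at 1244 bp. Region 2 (from 154782958 to 154783816) had folds of 9.16 and 7.14 in the KOPN-8 clone and 11.8 and 7.20 in its control, against 4.35 and 6.07 in the 697 clone and 4.59 and 4.45 in its control. Here the lines did not overlap, but how common this is over all regions was not computed.

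The MME region called in all 4 KOPN-8 libraries and in no 697 library was region 8 (154830827 to 154831220), where folds were 4.17 and 3.71 in the clone and 3.70 and 4.63 in the control. The region nearest to the opposite pattern was region 13, from 154901669 to 154902148. In KOPN-8 it had a peak only in control 2, with a fold of 3.60 at percentile 7.78 of that list, against 4.98 and 5.78 in the 697 clone and 5.81 and 5.44 in its control. With lists cut to equal length, with peaks at least 300 bp wide or with calls covering at least 50% of the region it was called in all 4 of 697 alone, as it also was without KOPN-8 control 2.

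CD34 had the smallest difference in peak share between the lines of these 4 loci, 0.185, and with lists of equal length the difference was 0. Of its 11 regions, 5 were called in all 8 libraries and 3 more in both lines. Region 1, on chromosome 1 from 208035058 to 208035589, had folds of 10.0 and 10.9 in the KOPN-8 clone and 10.8 and 11.1 in its control, against 7.25 and 6.68 in the 697 clone and 8.33 and 6.67 in its control. Region 4 (from 208041919 to 208042780) had 6.67 and 6.25 in the KOPN-8 clone and 6.22 and 5.93 in its control, against 10.3 and 9.26 in the 697 clone and 7.91 and 10.5 in its control. The lines did not overlap in either region, and their order was opposite. How common such a separation is over all regions was not computed. Region 8 (from 208058422 to 208058773) had folds from 5.74 to 7.27 in KOPN-8 and from 6.38 to 8.11 in 697, which overlapped. In the order of RefSeq genes on GRCh38.p14 LOC148696 comes directly before CD34. Whether regions at the low end of this window belong to a neighbouring gene was not tested.

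The CD34 region called in all 4 KOPN-8 libraries and in no 697 library was region 6 (208049543 to 208049816), where folds were 4.93 and 4.49 in the clone and 3.94 and 3.91 in the control. Region 10, from 208085362 to 208085567, was called only in KOPN-8 control 2, with a fold of 3.69 at percentile 9.38 of its list. It lies between 2 stretches without a peak in any list, of 21.2 kb and 23.0 kb.

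**Figure D4:**
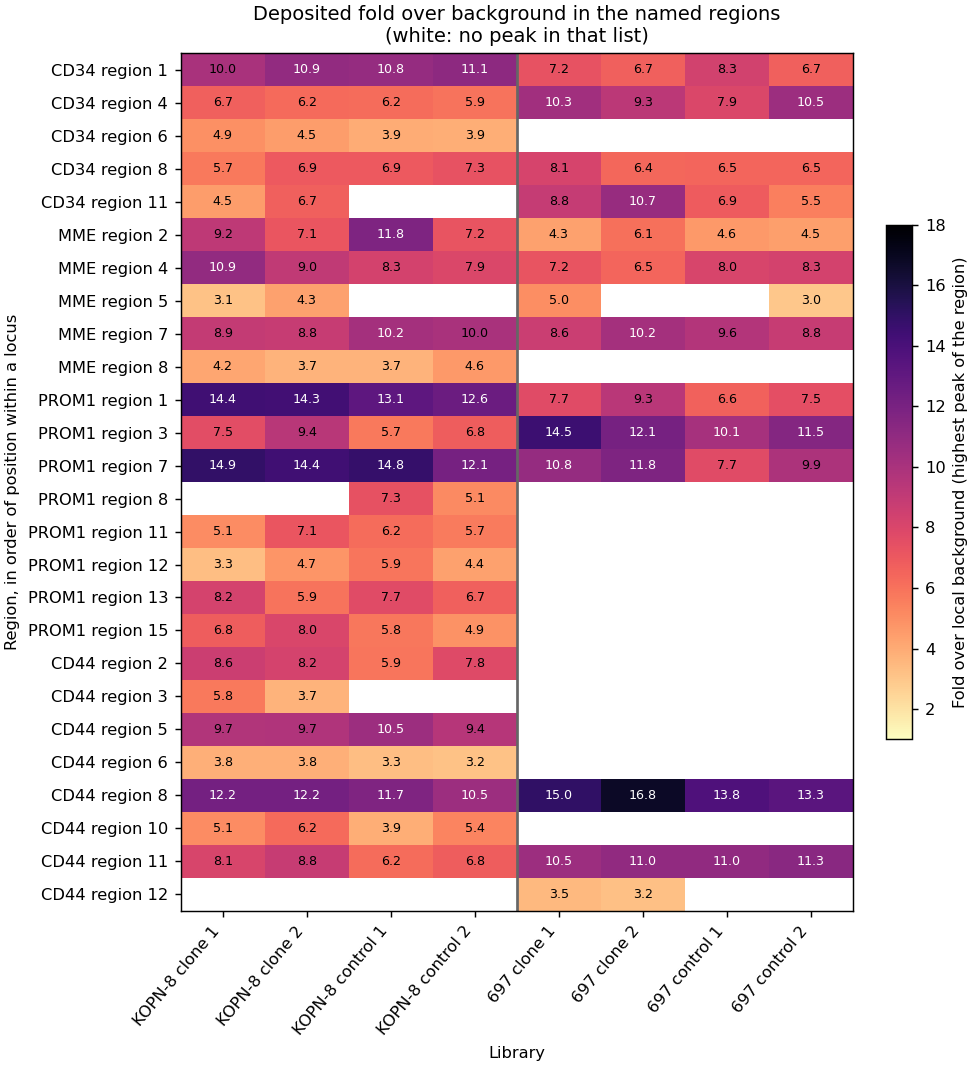
Deposited fold over local background in 26 named regions (rows) and 8 libraries (columns), taking the highest peak of a region in each list; white cells have no peak in that list. CD44 region 5 has folds of 9.44 to 10.5 in the 4 KOPN-8 lists and none in 697, while CD44 region 8 has a peak in all 8.

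The second comparison set each SETD2 clone against its empty vector control, as the study's design does. Gained regions are those called in both clone libraries and neither control library of a line, and lost regions the reverse. The KOPN-8 clone gained 3 of the 54 regions and lost 1, against 2.45% gained and 2.59% lost over all regions. The 697 clone gained 1 and lost 0, against 3.08% and 1.32%. Of the regions called in any library of the line, gains in KOPN-8 were 3 of 50 (6%), against 3.61% in the whole series, and gains in 697 were 1 of 28 (3.57%), against 4.30%. With the strongest 50% of each list the gains were 0 of 28 in either clone, against 3.06% of all regions in KOPN-8 and 3.13% in 697. The losses in KOPN-8 were then 2 of 28, against 3.39%. With peaks at least 300 bp wide KOPN-8 gained 3 of 38 regions, against 2.69%, and lost 5, against 2.77%. Counts this small, which move with the setting, do not set these loci apart from the series. With 1 library fewer the rule is easier to meet, and the share over all regions of the series was higher too. Gains in the KOPN-8 clone numbered 6 of 54 without clone 2, against 7.37% of all regions. Losses there numbered 4 without clone 1 (4.42% of all regions), 2 without clone 2 (4.19%), 4 without control 1 (6.03%) and 5 without control 2 (8.85%). In 697, gains numbered 3 without clone 1 (12.6% of all regions), 2 without control 1 (4.12%) and 3 without control 2 (7.14%). Losses in 697 numbered 1 without clone 1 (1.86%), 1 without control 1 (8.11%) and 2 without control 2 (4.14%).

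Of the gained KOPN-8 regions, CD34 region 11, from 208108534 to 208108921, reached the highest fold. It had folds of 4.50 and 6.69 in the KOPN-8 clone and no peak in its control. In 697 it was called in every library, with folds of 8.84 and 10.7 in the clone and 6.88 and 5.54 in the control, so there the clone lay above its control. MME region 5 (from 154808460 to 154808735) had folds of 3.14 and 4.33 in the KOPN-8 clone, and it was also called in 697 clone 1, at 5.03, and 697 control 2, at 2.95. CD44 region 3 (from 35143911 to 35144294) had folds of 5.76 and 3.71 in the KOPN-8 clone and no peak elsewhere. The lost region was PROM1 region 8, from 16021217 to 16021662, with no peak in the KOPN-8 clone, against folds of 7.31 and 5.14 in its control. In 697 the gained region was CD44 region 12 (35195727 to 35196196), where folds were 3.46 and 3.21 in the clone.

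No difference in peaks per 10000 between arms passed the test. MME had 1.19 and 0.928 in the KOPN-8 clone, against 1.42 and 1.57 in its control, without overlap. It had 0.952 and 0.654 in the 697 clone, against 0.875 and 0.999 in its control, with overlap. MME regions 3, 6 and 10 were each called in KOPN-8 clone 1 and in both controls, but not in clone 2. CD44 had 1.78 and 1.55 in the KOPN-8 clone, against 1.42 and 1.42 in its control, also without overlap. Within 1 line, 2 libraries against 2 give only 6 divisions, so an exact permutation test cannot reach the threshold there. The share of all windows that separate in this way is not given here. Whether the lack of overlap in KOPN-8 sets MME or CD44 apart can therefore not be told. Over both lines the mean difference between clone and control was -0.286 at MME (exact permutation within lines, two-sided, p = 0.111), -0.146 at PROM1 (p = 0.278), 0.131 at CD44 (p = 0.278) and 0.0674 at CD34 (exact permutation, p = 0.5). None passed 0.05, and with these libraries none could, since 2 of 36 divisions is the least an exact test can give. The sign at CD34 turned without KOPN-8 control 1, to -0.00244, and the signs at CD34 and PROM1 turned with peaks at least 300 bp wide, to -0.136 and 0.0199. After adjustment over 25929 tests all were at least 0.887 (exact permutation within lines), and 0 tests passed. At the smallest unadjusted p the clone was higher in 2.34% and lower in 3.07%. Since each edited group is 1 clone, the edit and other properties of that clone cannot be told apart.

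Libraries were also compared in pairs at these loci, where pairs of the same line shared more regions than pairs of different lines. Of the regions called in either of 2 libraries, 72.0% to 84.0% were called in both for the 4 pairs of the same group. For the 8 pairs of a clone library and a control library of the same line this share was 69.2% to 87.5%, and for the 16 pairs of different lines 40.9% to 58.3%. KOPN-8 lists had 34 to 41 peaks at the 4 loci and 697 lists 22 to 24, which limits what different lines can share. The same shares over all regions of the series were not computed, so these values cannot show whether the loci stand apart.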

How the data were processed

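ATAC-seq was analysed in 8 libraries of 2 lines, 2 per group, grouped by their titles. Bowtie2 (an aligner), MACS2 (a peak caller) and hg19 are named per the submitters' processing notes. Their versions, their settings, duplicate removal and any offset of cut positions are not stated there, and such steps could move peak edges and weak calls. The authors deposited a peak list for each library, unpooled, with 1 value per peak. The authors' deposited value was taken to be a fold, a linear ratio of pileup to local background made by the peak caller, from its range and its even steps at the low end, since the files have no header. Read depth is unknown, so no interval for counting error was given.

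Lists were merged into regions over all 8 libraries (overlap of at least 1 bp), with a region called where a list had a peak in it. Fold percentiles were taken within a list. Peak shares were tested by exact permutation (70 divisions by line, 36 by arm within lines) and calls per region by Fisher's exact test, both with Benjamini-Hochberg adjustment over all windows or regions at a threshold of 0.05. Per locus, the 3 regions with the highest median percentile and all gained or lost were named. So were those called in every library of 1 line and none of the other (at most 6). CD34 region 10 and MME regions 3, 6, 10 and 13 were chosen after their values were seen. Loci, lists and tests were chosen with earlier results of these data known. Clone-only and control-only line comparisons were added after seeing the data. The design's other markers and genes of like pattern needed an hg19 annotation and were not analysed here. Promoter sequences of all 4 genes matched by symbol. Code was tested on simulated lists. Python 3.11.15, NumPy 2.4.6, pandas 2.3.3 and SciPy 1.17.1 were used.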

Additional observations from a re-analysis of the deposited data

How the results depend on the processing

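In 68 alternatives of the peak share by line, KOPN-8 stayed above 697 except at CD34 with lists of equal length, where the difference was 0, and no adjusted p passed 0.05 (exact permutation, 0.0663 to 0.581 for CD44 and PROM1, 0.0663 to 0.935 for MME and 0.151 to 1 for CD34). Leaving out 1 library gave differences from 0.889 to 1.01 at CD44, 0.716 to 0.881 at PROM1, 0.309 to 0.524 at MME and 0.140 to 0.247 at CD34. Other settings moved them further. Lists of equal length gave 0.131 at MME, widened windows 0.136 at MME and 2.22 at CD44, the strongest 50% 0.0636 at CD34, and covered bases, on their own scale, 0.673 at CD44 and 0.108 at CD34. Differences between clone and control kept their sign in 53 of 56 alternatives. The exceptions were CD34, at -0.136 with peaks at least 300 bp wide and -0.00244 without KOPN-8 control 1, and PROM1, at 0.0199 with peaks at least 300 bp wide. Leaving out 1 library gave -0.00244 to 0.137 at CD34, -0.361 to -0.211 at MME, -0.244 to -0.0485 at PROM1 and 0.0630 to 0.199 at CD44.

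Regions called in every KOPN-8 library and no 697 library numbered 2 of 28 in the strongest 50% (8.92% of all regions). They numbered 6 of 46 with lists of equal length (8.36%) and 5 of 38 with peaks at least 300 bp wide (7.59%). With windows widened by 50 kb they numbered 17 of 94 (7.30%). With 1 library left out there were 10 to 13 of 54 (7.41% to 8.4%). Among clones they numbered 12 of 54 (11.4% of all regions) and among controls 15 (12.7%). Those called in every 697 library and no KOPN-8 library numbered 1 with equal lists (7.05% of all regions). They also numbered 1 with peaks at least 300 bp wide (6.10%) and with calls covering at least 50% of a region (6.01%). Widened windows held 4 of 94 (5.85%), and there were 2 of 54 among clones (11.7%) and 1 among controls (9.64%). With 1 library left out there were 0 to 1 (6.15% to 7.46%). Regions gained in the 697 clone numbered 0 in the strongest 50% (3.13% of all regions), with equal lists (2.75%) and with 50% cover (3.66%). With 1 library left out 1 to 3 were gained (4.12% to 12.6% of all regions) and 0 to 2 lost (1.86% to 8.11%). In the KOPN-8 clone 0 were gained in the strongest 50% (3.06% of all regions), and 3 to 6 with 1 library left out (3.66% to 7.37%). Losses there numbered 2 of 28 in the strongest 50% (3.39% of all regions) and 2 of 46 with equal lists (2.8%). They numbered 5 of 38 with peaks at least 300 bp wide (2.77%) and 3 of 54 with 50% cover (2.79%). With 1 library left out there were 2 to 5 (4.19% to 8.85%). The cause of these moves was not tested, except that leaving out a library loosens each rule.

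With the replicate number as a block only the p-values could change, since the counts and mean differences do not depend on it. The alternatives counted above include this block. For the line differences of 0.970 (CD44), 0.781 (PROM1), 0.407 (MME) and 0.185 (CD34) no exact permutation p was under 0.125, the smallest this design allows. The block rests on the replicate numbers only. Within a line, the difference between the 2 clone libraries, in order of number, was correlated with that between the 2 control libraries. Over 25925 windows the correlation was 0.12 in 697 and 0.0081 in KOPN-8. These values concern clone and control of the same line, and the pairing of KOPN-8 with 697 libraries was not examined.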

Other observations

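The 50 kb on each side of the 4 windows held another 40 regions. Calls came from all 8 libraries in 13 of these 40, a higher share than the 20.4% of all regions. They came only from all 4 KOPN-8 libraries in 7 of 40, also a higher share than the 7.30% of all regions. Those only from all 4 of 697 were 4 of 40, again above the 5.85% of all regions. The excess of KOPN-8 regions was thus not confined to the windows, and the 697 class, absent from the windows, was present beside them. All 5 of the KOPN-8 regions beside CD44 lay at its low end, on the side of region 2, from 35079934 to 35112038 on chromosome 11. The one with the highest median percentile, 67.4, from 35104942 to 35105352, had folds of 7.11 to 8.03. No 697 region of this kind was found among the 19 beside CD44. Of the regions called only in all 4 of 697, the one with the highest median percentile, 77.0, lay beyond the high end of the MME window, on chromosome 3 from 154961978 to 154962942, with folds of 8.18 to 10.6. Another, with folds of 7.47 to 9.12, lay beyond CD34, on chromosome 1 from 208155365 to 208155670.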
